A study of Mus musculus with 4 samples.

Results

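Alveolar type I cells are the thin, flat cells that line most of the gas exchange surface of the lung. They were followed here through 10 genes used to mark them, Ager, Pdpn, Hopx, Cav1, Cav2, Emp2, Rtkn2, Limch1, Spock2 and Ahnak. The genes were taken by exact symbol from the platform annotation, and all 10 were found, read by 19 of the 22690 probe sets on the array. They are 10 of the 12393 genes with a probe set of a single symbol. The samples were whole lungs of mouse embryos, 2 wild type and 2 Sftpc-Nmyc, each on 1 Affymetrix array. Every title gives embryonic day 18, while the design text places the transgenic embryos later within that day and gives no separate age for the wild type. The Sftpc-Nmyc transgene joined mouse Nmyc1 (Mycn) to EGFP, a fluorescent protein, under 3.7 kb of promoter and enhancer of human SFTPC, a surfactant gene expressed in distal lung epithelium. The transgenic embryos came directly from eggs injected in the pronucleus, on a C57BL/6J and DBA/2J F2 background, so that each may carry its own insertion, and the strain of the wild-type embryos is not stated. The design text calls the duplicates biological replicates.

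In late gestation the distal tips of the lung give rise to flat type I cells and to cuboidal type II cells, which make surfactant. Type I cells spread over the air space with a very thin cytoplasm rich in caveolae, small pits of the cell membrane, and lie close to the capillary endothelium. MYC proteins, Mycn among them, bind DNA with their partner Max and drive growth and division. Several of the 10 genes are not restricted to type I cells. Caveolins are abundant in endothelium, podoplanin (Pdpn) is made by lymphatic vessels and mesothelium, Hopx by heart muscle, and Ahnak by many cell types.

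All 10 genes were lower in the Sftpc-Nmyc lungs in limma's test across 8675 genes (Benjamini-Hochberg adjusted p under 0.05), although Hopx and Ahnak depended on how the data were handled. Over all genes tested 15.7% were called lower and 14.7% higher, together 30.4%. The falls ran from a log2 fold change of -2.84 for Spock2 to -0.59 for Hopx, with a median of -1.43, against -0.02 over all genes tested. Of the 10 genes, 8 were lower by at least 2-fold, a call that 6.02% of all genes received. On the deposited scale the signals of the groups did not overlap for 9 of the 10 genes, Hopx being the exception, and 36% of all genes tested were lower with no overlap on that scale. Fold changes are Sftpc-Nmyc minus wild type on a log2(signal + 5) scale after quantile normalization, which understates changes of dim genes. The errors given with them are limma standard errors with n = 2 per group. In whole lung, fewer type I cells and less RNA per type I cell cannot be told apart.

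**Figure D1:**
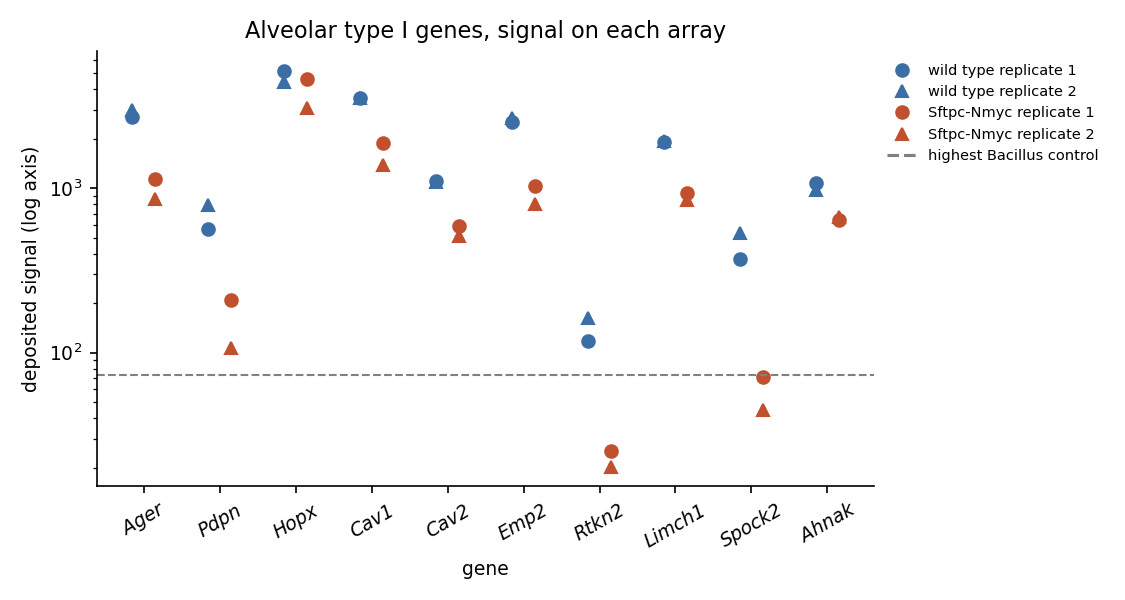
Deposited signal (log axis) of the probe set that stands for each of the 10 genes on each of the 4 arrays, wild type in blue and Sftpc-Nmyc in red, circles for replicate 1 and triangles for replicate 2. The dashed line is 73.4, the brightest reading of any Bacillus control. The groups are separated for every gene but Hopx, and Rtkn2 and Spock2 lie below the line in both transgenic lungs.

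Promoter windows were available for 9 of the 10 genes, 13 windows in all, each from 250 bases before to 50 bases after a transcript start (RefSeq, build GRCm38.p6). They were searched on both strands for CACGTG, the E-box that MYC-MAX dimers bind, for CAAGTG, a core bound by the lung factor NKX2-1, and for GGAATG, a core bound by TEAD factors. CACGTG occurred in windows of Pdpn and Hopx, 2 of the 13, and in 7.15% of all 32851 windows. CAAGTG occurred in 5 of the 13, of Ahnak, Cav2, Hopx, Limch1 and Spock2, and in 13.6% of all windows. GGAATG occurred in that of Ahnak alone, and in 14.7% of all windows. The window of Ager, the most specific of these markers, held none of the 3. It is shown with the windows that hold CACGTG, because the transgene encodes a protein of the family that binds this hexamer. Capitals mark a searched hexamer or its reverse complement.
Ager, chr17:34597600-34597899, plus strand: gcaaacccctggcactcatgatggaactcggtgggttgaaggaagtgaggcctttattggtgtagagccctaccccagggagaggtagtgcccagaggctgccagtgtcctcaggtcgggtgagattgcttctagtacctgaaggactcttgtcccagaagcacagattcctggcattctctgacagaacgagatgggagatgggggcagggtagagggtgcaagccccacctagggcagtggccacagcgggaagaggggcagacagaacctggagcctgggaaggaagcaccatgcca
Pdpn, chr4:143299515-143299814, minus strand: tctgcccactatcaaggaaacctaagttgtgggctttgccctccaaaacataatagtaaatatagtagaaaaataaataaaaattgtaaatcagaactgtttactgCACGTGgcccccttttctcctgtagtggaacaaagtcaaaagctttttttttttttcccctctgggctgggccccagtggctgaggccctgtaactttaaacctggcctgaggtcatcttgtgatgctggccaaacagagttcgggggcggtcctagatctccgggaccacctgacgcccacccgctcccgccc
Hopx, chr5:77095218-77095517, minus strand: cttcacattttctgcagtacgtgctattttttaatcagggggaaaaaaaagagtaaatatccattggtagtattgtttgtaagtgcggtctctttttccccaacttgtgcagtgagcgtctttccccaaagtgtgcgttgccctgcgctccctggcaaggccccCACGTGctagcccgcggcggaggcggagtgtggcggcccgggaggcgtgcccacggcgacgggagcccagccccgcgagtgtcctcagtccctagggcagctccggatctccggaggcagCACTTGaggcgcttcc
The CACGTG of Pdpn began at position -144 and that of this Hopx window at position -86 relative to the start site, and the window of Hopx at chr5:77115074-77115373 held none of the hexamers. Both genes were called lower, at log2 fold changes of -2.14 for Pdpn and -0.59 for Hopx. Binding was not measured, and these matches describe letters only.

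Ager, Pdpn and Emp2, proteins of the cell membrane, were all lower. Ager encodes RAGE, a receptor of the immunoglobulin superfamily that is far more abundant on type I cells than elsewhere in the lung. Its signal was 2687.4 and 2988.7 in the wild-type lungs and 1132.2 and 857.3 in the transgenic lungs. Both transgenic values lay below both wild-type values, at 35.1% of the wild-type mean as deposited. After normalization the groups differed by -1.59 ± 0.14 on the log2 scale (limma adjusted p = 0.00043). Only 1.44% of the genes tested had a fold change as low as that of Ager or lower. The call held whichever array was left out, with log2 fold changes from -1.76 to -1.40.

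Pdpn, a mucin-like glycoprotein of the apical membrane, was read at 561.9 and 792.2 in wild type and at 208.6 and 107 in Sftpc-Nmyc. The groups did not overlap, but the replicates of each group differed by a larger ratio than for Ager. The groups differed by -2.14 ± 0.30 on the log2 scale (limma adjusted p = 0.0019), and leaving out 1 array at a time moved it between -2.59 and -1.67 without ending the call. Lymphatic genes and some mesothelial genes were lower in the same lungs. Lyve1, Reln and Flt4, the 3 lymphatic genes tested, had log2 fold changes of -1.86, -0.88 and -0.77. The summed signal of the 4 lymphatic genes measured went from 865.9 and 1015.5 to 385.4 and 335.6. Of 4 mesothelial genes tested, 2 fell, Msln at -2.14 and Upk3b at -1.81. Efemp1 had a positive value that did not pass (0.74 ± 0.26, limma adjusted p = 0.062), though it was called higher with the mean of probe sets and without a variance trend. Its signals were near or below the brightest Bacillus control reading, at 42.3 and 43 in wild type and 81.4 and 61.4 in Sftpc-Nmyc. The summed signal of the 6 mesothelial genes measured went from 2381 and 2948.1 to 1709.3 and 1440.4. Much of it came from Krt19, which is also on the list of genes shared by epithelia and was not called (-0.24). Krt19 alone gave 1235.9 and 1371.5 in wild type and 1205.3 and 1096.8 in Sftpc-Nmyc. None of the genes on either list was at or under a signal of 1 on all arrays, a far lower bar than the Bacillus controls. Prox1 on the lymphatic list and Wt1 and Bnc1 on the mesothelial list lay below the brightest Bacillus reading on every array. The part of these cells in the fall of Pdpn was not tested.

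Emp2, a small protein with 4 membrane-spanning segments of the PMP22 family, was read by 3 probe sets, and all 3 fell. The probe set that stands for the gene gave 2517.3 and 2659.4 in wild type and 1033.1 and 800.8 in the transgenic lungs. After normalization its log2 fold change was -1.55 ± 0.14 (limma adjusted p = 0.00042). The others gave 1487 and 1411.5 against 453.7 and 365.9, and 1220 and 1414.3 against 564.6 and 411.5. Their log2 fold changes were -1.84 ± 0.13 and -1.48 ± 0.17 (limma adjusted p = 0.0060 and 0.012 in a fit of all 20380 probe sets with 1 symbol). In each of them every transgenic value was below every wild-type value. Of the 4 family members tested, 3 fell and none rose. Pmp22, a protein of myelin and of many other membranes, was at -1.14 ± 0.11 and Emp3 at -0.90 ± 0.15, while Emp1 did not pass, at -0.13 ± 0.15. Thus Emp2 had the lowest value of the family, although whether it differed from Pmp22 was not tested.

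Both caveolins were lower. Cav1, the coat protein without which caveolae of non-muscle cells do not form, stood at 3550.8 and 3550.9 in wild type and at 1888.9 and 1385.1 in Sftpc-Nmyc. The wild-type lungs were almost equal, and both transgenic values were below them, at 46.1% of the wild-type mean. The groups differed by -1.31 ± 0.15 on the log2 scale (limma adjusted p = 0.0010). It was -1.13 without normalization beyond the deposited scaling and -1.06 with median centring, and it passed in each case. Cav2, which joins Cav1 in the coat, went from 1106.2 and 1081.7 to 587.9 and 512.8. After normalization its log2 fold change was -1.03 ± 0.13 (limma adjusted p = 0.0013). A second, dim probe set of Cav2 gave 41.7 and 45.1 against 22.9 and 53.4, so that its groups overlapped, and did not pass (-0.16 ± 0.41). With the mean of both probe sets Cav2 stood at -0.60 (limma adjusted p = 0.038).

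Other components of caveolae and of related membrane domains were lower too. Of 9 genes tested, the 2 caveolins included, 8 fell, none rose and the median was -0.74. That count dropped to 4 when wild-type replicate 2 was left out, and to 5 when wild-type replicate 1 or Sftpc-Nmyc replicate 1 was. Among the cavins, which stabilise the caveolar coat, Cavin2 was at -1.34, Cavin3 at -0.71 and Cavin1 at -0.52, all called, and Cavin4, a muscle form, at -0.80 without a call. Ehd2, which sits at the neck of caveolae, was at -0.74, and the flotillins, which mark other membrane domains, were at -0.70 for Flot1 and -0.49 for Flot2. Endothelial genes were lower in the same lungs, with 18 of 19 tested called and a median of -1.27. Their summed signal over 20 genes went from 12772.2 and 13801.7 to 5388.9 and 5501. None was at or under 1 on all arrays, but Erg lay below the brightest Bacillus reading on every array. Cdh5 and Pecam1, which hold endothelial cells together, were at -1.59 and -1.55. The part of endothelium in the fall of the caveola genes was not tested.

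The genes of the cell skeleton and of scaffolds differed widely. Rtkn2 was read at 117.6 and 162.7 in wild type and at 25.3 and 20.3 in Sftpc-Nmyc. The transgenic values were 16.3% of the wild-type mean and lay below 73.4, the highest of the Bacillus controls, so how far Rtkn2 fell is uncertain at the low end. The groups differed by -2.33 ± 0.27 on the log2 scale (limma adjusted p = 0.0011). Limch1, which binds and activates non-muscle myosin II, had 2 probe sets that moved alike. The brighter gave 1914.7 and 1926.1 against 938 and 847.1, and the other 1052.3 and 1141.5 against 569.3 and 372.3. Both separated the groups, at log2 fold changes of -1.14 ± 0.11 and -1.28 ± 0.20 (limma adjusted p = 0.00064 over genes, and 0.021 in the fit of all probe sets).

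Ahnak, a very large scaffold protein beneath the cell membrane, moved less. Its bright probe set gave 1071.4 and 976.2 in wild type and 643.7 and 667.8 in the transgenic lungs, 64.1% of the wild-type mean. The groups were separate, at -0.68 ± 0.13 on the log2 scale (limma adjusted p = 0.0065). It was no longer called when wild-type replicate 1 was left out (-0.59, limma adjusted p = 0.056) or when its 4 probe sets were averaged (-0.71, limma adjusted p = 0.066). The other 3 probe sets of Ahnak lay below the Bacillus maximum on all arrays and did not pass. One of them gave 30.6 and 42.5 against 10.8 and 3.4, and the remaining pair had log2 fold changes of -0.26 and -0.17.

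Spock2, testican-2, a proteoglycan secreted into the matrix, had the lowest fold change of the 10. It went from 368.6 and 529.6 to 71.2 and 45, that is to 12.9% of the wild-type mean, with both transgenic values below the Bacillus maximum. How far it fell is therefore as uncertain at the low end as for Rtkn2, and which of the pair fell further is not settled. The groups differed by -2.84 ± 0.26 on the log2 scale (limma adjusted p = 0.00044), and 0.231% of the genes tested were as low or lower. A dimmer probe set of Spock2 gave 50.3 and 65.2 against 5.9 and 5.8, with -2.41 ± 0.32 on the log2 scale after normalization (limma adjusted p = 0.016 in the fit of all probe sets). This probe set lay below the Bacillus maximum on all 4 arrays, so its fold change is that of signals near background. Among other calcium-binding matrix proteins of the SPARC family, to which testicans belong, Sparcl1 was lower at -1.15 ± 0.17 and Smoc2 was higher at 0.87 ± 0.18. Smoc2 was no longer called without wild-type replicate 1.

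Hopx, a homeodomain protein that does not bind DNA itself, was the least changed. Its brighter probe set gave 5179 and 4396.8 in wild type and 4606.1 and 3076.3 in Sftpc-Nmyc. The first transgenic lung lay between the wild-type lungs, so the deposited signals overlapped, and they separated only after quantile normalization. The groups differed by -0.59 ± 0.15 on the log2 scale (limma adjusted p = 0.023). It was -0.34 without normalization beyond the deposited scaling and -0.27 with median centring, and passed in neither case (limma adjusted p = 0.18 and 0.31). Nor did it pass in 6 further settings, namely without wild-type replicate 1, wild-type replicate 2 or Sftpc-Nmyc replicate 2, with the mean of its probe sets, without the filter on low values, and without a variance trend (limma adjusted p = 0.061 to 0.16 over these). The second probe set of Hopx gave 1273.1 and 1492.3 against 1564.8 and 923.1, with the transgenic values on either side of the wild-type ones, and did not pass (-0.24 ± 0.26). Genes of cardiac muscle, where Hopx is also made, were lower in all 7 tested, or in 3 with a filter at the 50th percentile, which tests fewer genes, and their summed signal over 10 genes went from 3093.5 and 1893.7 to 357.3 and 613.5. None of the 10 was at or under 1 on all arrays, but Nppa and Myl3 lay below the Bacillus maximum on every array. The part of heart muscle in the Hopx values was not tested.

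**Figure D2:**
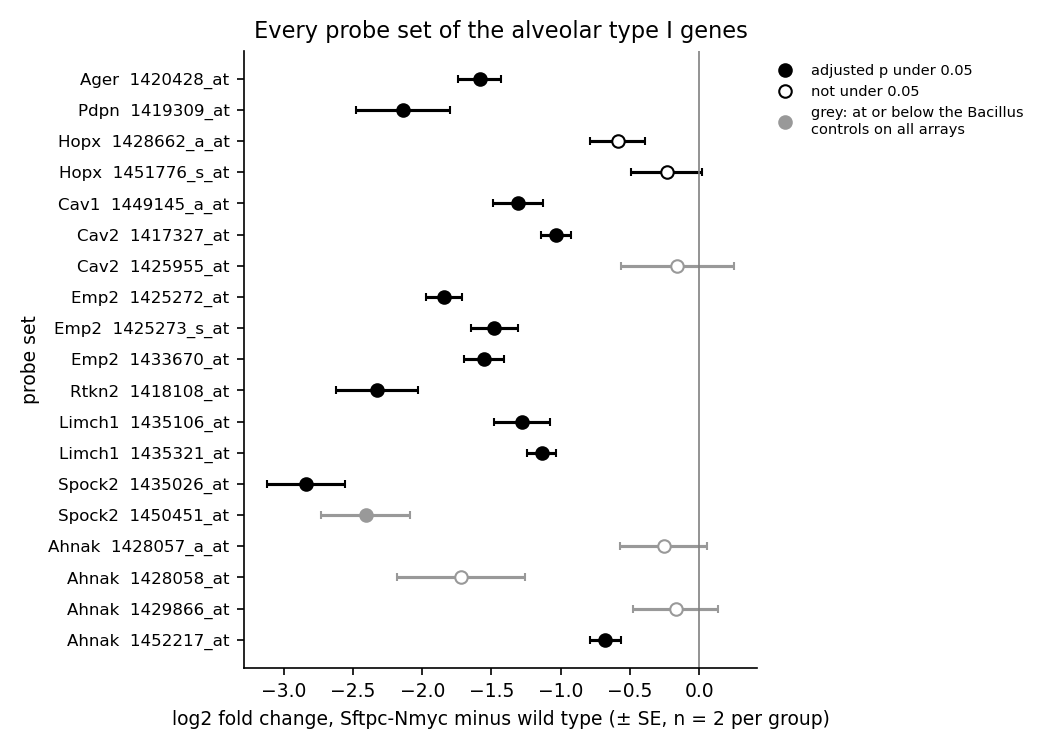
Log2 fold change with its standard error (x axis, n = 2 per group) for each of the 19 probe sets of the 10 genes, filled where the limma adjusted p over all probe sets was under 0.05 and grey where the signal did not exceed the Bacillus controls on any array. Filled points are all on the lower side, and the open ones belong to Hopx, Ahnak and the dim probe set of Cav2.

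Of the 19 probe sets, 13 were lower and none higher in the fit over all 20380, in which 6.16% of all probe sets were called lower. The 6 that did not pass were both of Hopx, the dim one of Cav2 and the dim ones of Ahnak. With any 1 array left out, 0 of the 19 passed in limma over all probe sets, and 0 of all 20380 did. The fit over genes, where dim genes were left out, kept between 8 and 10 of the 10 genes whichever array was left out.

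**Figure D3:**
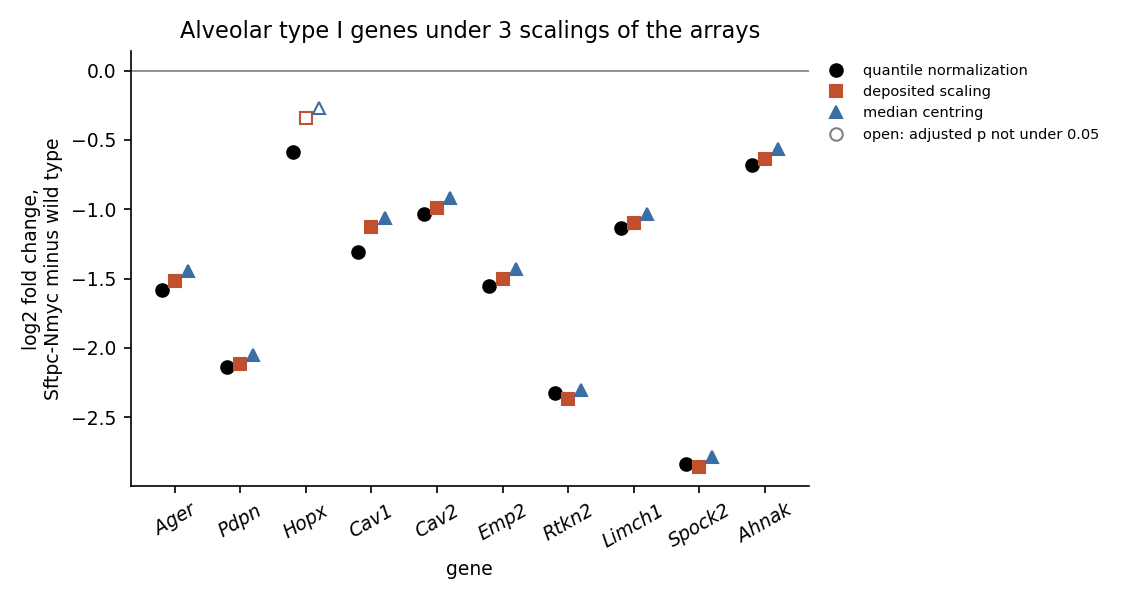
Log2 fold change of the 10 genes (y axis) with quantile normalization, with the deposited scaling alone and with median centring of each array, open where the limma adjusted p was not under 0.05. Hopx and Cav1 shift most between the scalings, and Hopx is called in 1 of the 3.

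The transgenic lungs were not equal to each other in these genes. The second was lower than the first in 9 of the 10 genes after normalization, Ahnak being the exception, and 48% of all genes tested were lower in the second. The median difference, second minus first, was -0.37 on the log2 scale over the 10 genes and 0.01 over all genes tested. Between the wild-type lungs 4 of the 10 were lower in the second, with a median difference of 0.03. Mycn itself, read by its brightest probe set at 34.7 and 32.1 in wild type, stood at 455.2 in the first and 356 in the second transgenic lung. The log2 fold change of Mycn was 3.46 for this probe set and 0.97 with the mean of its probe sets.

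Over a wider list of genes linked to type I cells the result was mixed. Of 30 such genes, 24 were measured and 23 tested, and 13 fell, 1 rose and 9 did not pass, with a median of -0.57. The count that rose was 2 without Sftpc-Nmyc replicate 2 and 2 with median centring. Aqp5, the water channel of the apical membrane, had the lowest value, -4.35 ± 0.17 on the log2 scale after normalization. Its signal was 535.7 and 564.6 in wild type against 20.7 and 22.5, with the transgenic values under the Bacillus maximum. Cryab, a small heat shock protein, was at -2.80 ± 0.19. Mal2, a protein of apical membrane traffic, rose by 1.21 ± 0.17, from 189.4 and 142 to 393.5 and 379.7. Both lists were chosen with earlier results of these data known.

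Regulators linked to type I cells, with some of their targets counted among them, went both ways in whole lung. Of 12 regulators tested, 4 fell and 3 rose, with a median of 0.02, and the count that fell was 1 without wild-type replicate 1 and 2 without wild-type replicate 2 or Sftpc-Nmyc replicate 2. The count that rose was 1 without wild-type replicate 2. Ccn2 and Ccn1, secreted proteins that are targets of the YAP and TAZ coactivators, were at -2.02 ± 0.15 and -0.95 ± 0.18. Which cells of the lung gave these signals was not tested. Of the coactivator genes, named after their values were seen, Yap1 did not pass at 0.17 ± 0.13. Wwtr1, the gene of TAZ, was called lower at -0.70 ± 0.20. Tead2, a DNA-binding partner of these coactivators, rose by 1.12 ± 0.20. Nkx2-1, the factor that defines lung epithelium, did not pass, at 100.9 and 86.7 in wild type and 133.8 and 127.3 in Sftpc-Nmyc (0.48 ± 0.18, limma adjusted p = 0.079). Of 15 genes for binding partners of the members, 8 fell and none rose, or 5 without wild-type replicate 1. Dysf, a membrane repair protein that binds Ahnak, was at -1.50 ± 0.40 and S100a8, which with S100a9 forms a ligand of RAGE, at -1.14 ± 0.28, while Ezr, a linker of podoplanin to actin, did not pass at 0.16 ± 0.13.

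**Figure D4:**
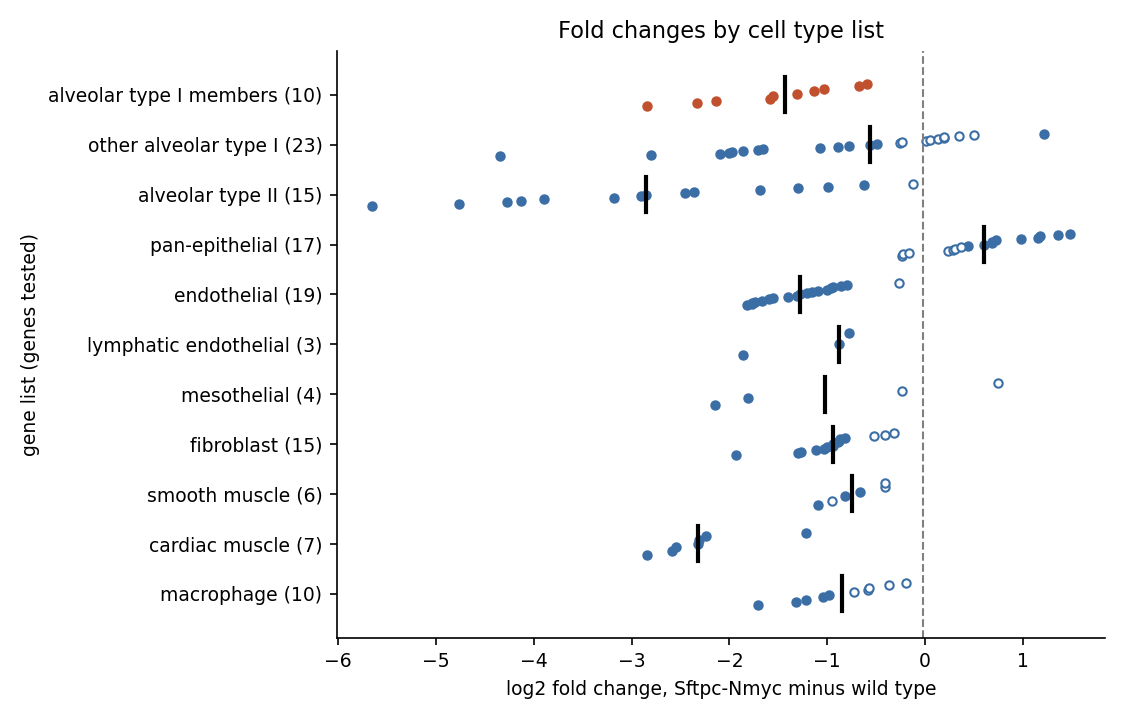
Log2 fold change (x axis) of every tested gene of the 10 members, in red, and of lists for other cell types, in blue, filled where called and open where not; the number tested is in brackets, bars are medians and the dashed line is the median of all genes tested. The median of the members lies between those of the alveolar type II and the pan-epithelial genes, near that of the endothelial ones. The medians of the other lists lie between the same bounds, and single genes of the lists overlap. Every list but the pan-epithelial one has its median below that of all genes tested.

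Set beside other epithelial genes, the median of the type I members lay in between. Of 15 alveolar type II genes tested, 14 fell, with a median of -2.85. Of 17 genes shared by epithelia 10 rose and none fell, with a median of 0.60, and the count was 5 without either wild-type array and 6 without Sftpc-Nmyc replicate 2. Epcam, an adhesion protein of all lung epithelium, was higher at 1.48 ± 0.12. Genes of other lung cells were also lower in part. Called lower were 12 of 15 fibroblast genes tested, 3 of 6 smooth muscle genes and 5 of 10 macrophage genes, and none rose. The smooth muscle count shrank when wild-type replicate 2 or Sftpc-Nmyc replicate 1 was left out. The medians of these lists were -0.94, -0.74 and -0.85. All these medians were set side by side and the differences between lists were not tested. Sftpc, a surfactant gene of distal lung epithelium and one of the type II list, was bright in all lungs, at 9566.4 and 9545.8 in wild type and 5788.1 and 4817.4 in Sftpc-Nmyc, and was called lower, at 55.5% of the wild-type mean (limma adjusted p = 0.00057). Xist, the RNA of the inactive X chromosome, was read at 1707.8 and 1506.1 in wild type and at 59.3 and 63.9 in Sftpc-Nmyc, so genotype and an apparent difference in sex cannot be told apart for any of these genes.

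Neighbouring genes were counted as well. On assembly GRCm38.p6 the nearest tested protein-coding genes on either side of the 10 came to 18 genes that are no members, of which 2 were lower, 3 higher and 13 not called. The shares over all genes tested were 15.7% lower and 14.7% higher. Among the members, Cav1 and Cav2 are each other's neighbours and both fell. The genes flanking the pair, Tes and Met, named after their values were seen, did not pass, at 0.23 ± 0.15 and -0.04 ± 0.26. The 2 lower neighbours, also named after their values were seen, were Psap next to Spock2 (-1.09 ± 0.12) and Scgb1a1 next to Ahnak (-1.58 ± 0.37). The 3 higher ones, named likewise, were Paics, Nubp1 and Tut1. Next to Hopx, Emp2 and Ahnak in turn, they stood at 0.83 ± 0.20, 0.72 ± 0.16 and 0.99 ± 0.20. Outside the members, the patterns most like that of Ager over the 4 arrays were those of Ptgis, Rcsd1, Ace, Higd1b and Tmem140, with a root mean square distance of 0.012 to 0.060 on the log2 scale after each gene was centred on its own mean. Emp2 was the member closest to Ager, at 0.028, nearer than all of these but Ptgis.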

How the data were processed

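Total RNA of 4 whole embryonic lungs, 2 per group, was extracted by RNeasy kit, biotin-labelled and hybridised to Affymetrix arrays, per the labels' protocols. Each probe set has 1 deposited intensity per array, on a linear scale. Which software made these values is not given in the sources used here. Array medians ran from 65.45 to 70.8, and the mean without the outer tails was about equal on all arrays. Detection calls were not used here, so the highest signal of 27 Bacillus control probe sets, 73.4, served as a guide to background. The number of arrays limits the precision.

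Of 22690 probe sets 64 were controls, 20380 had 1 symbol, 691 several and 1555 none. By gene identifier 20351 matched the RefSeq table of GRCm38.p6. Values under 1 were set to 1, 5 was added, log2 was taken and non-control probe sets were quantile normalized. The probe set with the highest mean stood for a gene, and genes below the 30th percentile were left out, which left 8675. All 10 members passed. limma 3.58.1 in R 4.3.3 (lmFit, eBayes with a trend) was fitted with group as the only term and Benjamini-Hochberg adjustment, and a second fit took all 20380 probe sets. The code was tested on simulated data. Members and lists were chosen with earlier results of these data known. The genes named were the members with every probe set, all tested genes of the caveola, PMP22 and lymphatic lists, the 2 lowest and the highest value of the other lists, a few defining markers and the 5 genes outside the members nearest to Ager. Not every name so given is printed. Alternatives changed the normalization, offset, filter, choice of probe set, variance model, replicate block and arrays used.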

Additional observations from a re-analysis of the deposited data

How the results depend on the processing

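The members called lower numbered 8 to 10 under all 13 alternatives and none was called higher. Their median was -1.25 with median centring of each array. With arrays left out in turn it ran from -1.60 to -1.22, the members called from 8 to 10, the calls over all genes from 1375 to 1899 (1617 and 1375 when wild-type replicates 1 and 2 were left out, 1618 for Sftpc-Nmyc replicate 2), and the wider type I list from 9 to 12 lower. In the fit over all probe sets, 4 of the 19 passed without a variance trend (337 of all probe sets) and 0 with any array left out. The lone array of a group was assumed there to vary like the other group.

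The replicate block, which pairs arrays by their number, gave 10 members called lower, 2218 genes in all and 12 lower on the wider type I list. Deviations of same-numbered arrays correlated at -0.04 over genes, so nothing shows that the numbers pair the lungs. Of 846 values for 66 named genes, 785 kept their direction and their side of the threshold. Many of these genes were named for having the lowest or highest value of their list in the same fit. The share kept is therefore no measure of how stable the lists are.

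Values that changed sign had not passed in the first place. Ezr was at -0.43 with the mean of its probe sets. With arrays left out in turn Emp1 ran from -0.30 to 0.034, Cd68 from -0.42 to 0.035, and the dim probe set of Cav2 from -0.65 to 0.33, the dimmer of Hopx from -0.60 to 0.14 and a dim one of Ahnak from -0.42 to 0.075. The cause was not tested. Signals near or below the Bacillus maximum limit Rtkn2, Spock2, Aqp5, Dysf, Efemp1 and the dim probe sets of Ahnak and Cav2, among others. Rtkn2 was left out by a filter at the 50th percentile.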
